A study of Mus musculus with 25 samples.

Results

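Gonadal white adipose tissue was compared between mice fed a low-fat diet (LFD) for 12 weeks and mice fed it for 8 weeks. The members are the 4 arrays labelled LFD at 12 weeks and the 4 labelled LFD at 8 weeks, 8 of the 25 arrays of the series, chosen by their labels alone. All mice were heterozygous male apoE3L.CETP animals, which carry the human transgenes ApoE3Leiden and hCETP, and no array of a mouse without them was used. The LFD (D12450B) held 20% protein, 70% carbohydrate and 10% fat, and feeding began at the age of 12 weeks. The labels give the 8-week mice an age of 20 weeks and the 12-week mice an age of 34 weeks, which is older than 12 weeks of diet from that start would give. Time on diet, age and any difference in handling between the collections therefore coincide in these groups and cannot be told apart. The other groups used for reference were chow at the start of feeding (2 arrays, 12 weeks of age), LFD at 4 weeks (4 arrays), and the cholesterol-containing high-fat feed D14010701 (HFD) at 4 weeks (3 arrays), 8 weeks (4 arrays) and 12 weeks (4 arrays).

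Gonadal fat is a visceral depot whose adipocytes store triglyceride, release fatty acids and secrete hormones such as adiponectin, and whose stroma holds progenitors, vessels and macrophages. A low-fat diet rich in carbohydrate is commonly used as the control for high-fat feeding, and fat cells on it make part of their fatty acids from glucose. Ageing and growth of the depot are known to alter its matrix, its mitochondria and its immune cells, and the comparison asks how far the control tissue itself moved between the later collections.

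Values are log2 levels from Affymetrix Mouse Gene 2.0 ST arrays, so a difference of 1 is a 2-fold change, and the number of arrays limits the precision. The 8 arrays had medians of 5.06 to 5.17 and correlated with each other at 0.965 to 0.990 across genes. The adipocyte hormone gene Adipoq read 11.55, 11.67, 11.78 and 11.39 at 8 weeks and 11.45, 11.32, 11.58 and 11.32 at 12 weeks, so the defining marker of the labelled tissue was high in every array. In bulk tissue, fewer cells of a type and less RNA per cell cannot be told apart.

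Liver transcripts were present in part of the arrays of both groups. The mean of 26 hepatocyte genes was 10.44, 10.08, 5.74 and 5.89 in LFD 8-week arrays 1 to 4 and 11.12, 10.91, 7.77 and 10.36 in LFD 12-week arrays 1 to 4. Albumin (Alb), the main plasma protein of liver, followed the same arrays, with 13.38, 13.32, 8.41 and 9.06 at 8 weeks and 13.42, 13.35, 11.84 and 13.16 at 12 weeks. Xist, a non-coding RNA made from the inactive X of females, read 5.31, 5.57, 3.74 and 3.64 at 8 weeks and 6.76, 6.46, 3.82 and 5.94 at 12 weeks, although all mice were labelled male. The liver level was thus high in 2 of 4 arrays at 8 weeks and 3 of 4 at 12 weeks, with array 3 of the 12-week group in between. Y-linked genes (4 measured) averaged 6.60 to 6.86 in the 8 LFD arrays, with Eif2s3y at 8.37 to 8.95. Xist was raised only in the arrays of high liver level, and its source was not tested. Of the 26 hepatocyte genes, 25 were higher at 12 weeks, with a median difference of 2.21, none was called, and none had groups that did not overlap. The exception was Hp, which encodes haptoglobin, at -0.24 ± 0.20. When arrays of high and low liver level were treated as blocks the hepatocyte median was 1.07, and with the hepatocyte mean as a covariate it was -0.03. Epididymis markers, high in chow array 1 and HFD 4-week array 1, averaged 3.92 to 4.06 in the 8 LFD arrays. Their mean was 11.85 in chow array 1 and 4.11 in chow array 2, and Adipoq read 10.62 and 11.80 there. Each chow mean below averages these 2 arrays and is a weak reference. Genes that lost or gained a call in the fits with the liver block or the covariate are given with those fits.

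**Figure D1:**
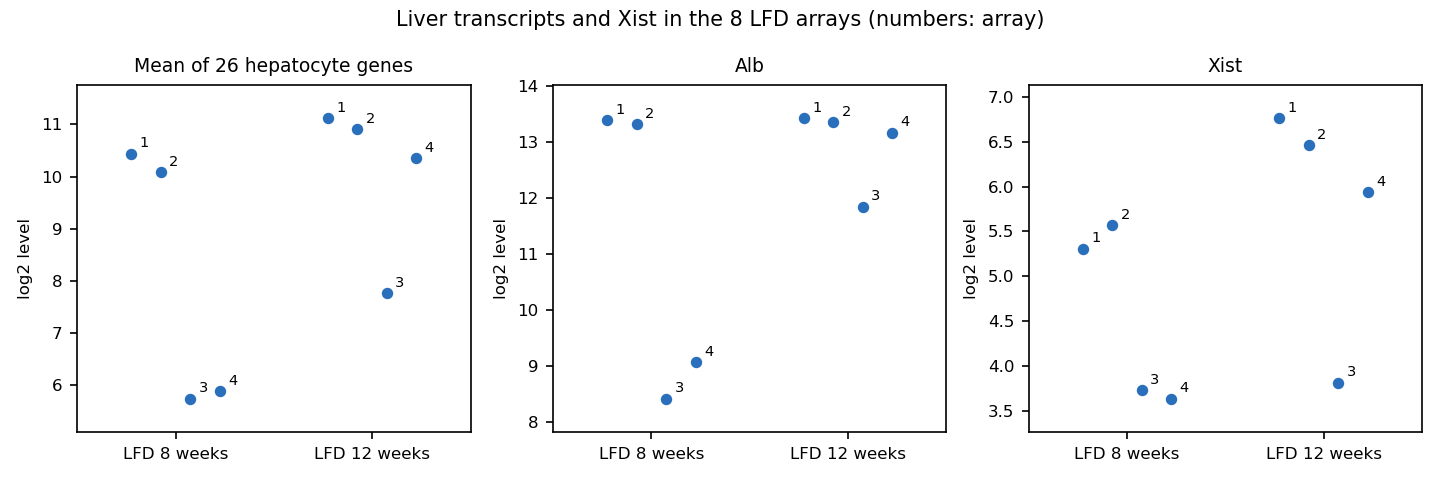
Log2 level of the mean of 26 hepatocyte genes, of Alb and of Xist in the 8 LFD arrays, with points numbered by array. Arrays 1 and 2 at 8 weeks and arrays 1, 2 and 4 at 12 weeks are high in each panel, and array 3 at 12 weeks has an intermediate hepatocyte mean of 7.77 with Xist at 3.82.

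Few genes differed between 12 and 8 weeks of LFD. Of 22180 genes tested, 15 passed a Benjamini-Hochberg adjusted p of 0.05 with limma's moderated test (0.0676% of genes), 4 higher (0.018%) and 11 lower (0.0496%) at 12 weeks. They comprised 7 miRNA hairpin loci, 4 olfactory or vomeronasal receptor genes, 2 long non-coding RNAs and only 2 other protein-coding genes, Eml2 and H2ac21. Without adjustment, 1976 genes had a p under 0.05 (8.91%), and in 1562 genes (7.04%) no 12-week array lay within the range of the 8-week arrays. All 15 called genes were called again with the liver split as a block, which called 20 (0.0902%), and 12 of them with the hepatocyte mean as a covariate, which called 14 (0.0631%). The 3 lost with the covariate were Mir1968 (adjusted p = 0.0575), 1600010M07Rik (adjusted p = 0.0572) and 4933424G05Rik (adjusted p = 0.0731). With each of the 8 arrays left out in turn, 9 of the 15 were called every time, and the total ranged from 9 (without LFD 8-week array 2) to 15. With only the 8 LFD arrays in the fit, 14 genes were called, 11 of them among the 15. Those lost were H2ac21 (adjusted p = 0.125), Vmn1r44 (adjusted p = 0.144), 1600010M07Rik (adjusted p = 0.15) and 4933424G05Rik (adjusted p = 0.209). Among genes whose mean over all arrays reached the median of the cluster means (5.14), 8 of the 15 were called. Which of the lower ones were detected is unknown. The hairpins, receptors and long non-coding RNAs lay outside the rule for named genes and are named here after their values were seen.

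The mature miRNAs of the called hairpins show which products these loci are annotated to make. RefSeq (GRCm38.p6) gave mature sequences for 3 of the 7 called hairpins, printed 5′ to 3′ with the seed, bases 2 to 8, in capitals, since the seed is the part of a miRNA that pairs with target messages.
mmu-miR-210-3p: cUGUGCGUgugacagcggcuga
mmu-miR-210-5p: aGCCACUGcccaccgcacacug
mmu-miR-1968-3p: aCCACCUCugcagcuguuaag
mmu-miR-1968-5p: uGCAGCUGuuaaggaugguggacu
mmu-miR-3471: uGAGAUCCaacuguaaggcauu
No seed was shared among them. The arrays were hybridised with cDNA made from amplified total RNA, so the signal at a hairpin locus can come from the primary transcript or a host transcript and is not a measure of the mature miRNA.

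The Mir210 locus, whose miRNA is known as a product of the hypoxia response, read 7.45, 7.45, 7.30 and 7.25 in the 8-week arrays and 6.35, 6.30, 6.30 and 5.84 in the 12-week arrays. The groups did not overlap, and the locus fell by 1.17 ± 0.16 on the log2 scale (adjusted p = 0.002, limma). It had been level before, with means of 7.35 on chow and 7.45 at 4 weeks of LFD. Mir3471-1 read 4.81, 5.05, 4.53 and 4.47 at 8 weeks and 3.48, 3.53, 3.37 and 3.16 at 12 weeks, a fall (-1.33 ± 0.23, adjusted p = 0.0143). Mir1968 read 4.61, 4.97, 4.64 and 4.45 at 8 weeks and 3.81, 3.63, 3.73 and 3.75 at 12 weeks (-0.94 ± 0.16, adjusted p = 0.0189). Its 12-week level was that of chow (3.69) and of 4 weeks of LFD (3.71), so the 8-week mean (4.67) was the highest of the LFD groups. The call of Mir3471-1 was lost without 8-week array 1, 8-week array 2 or 12-week array 4, and that of Mir1968 in 6 of the 8 fits that left out an array, all but those without 8-week array 4 or 12-week array 1.

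The other 4 called hairpins belong to 1 cluster on chromosome 2, the family of Mir297, Mir466, Mir467 and Mir669 copies. Mir467c read 8.39, 8.17, 8.85 and 7.95 at 8 weeks and 6.58, 7.15, 6.45 and 6.12 at 12 weeks, a fall (-1.77 ± 0.26, adjusted p = 0.00279). Mir466h read 5.63, 6.06, 5.73 and 5.62 at 8 weeks and rose to 7.76, 6.85, 7.81 and 7.62 (1.75 ± 0.28, adjusted p = 0.00857). Mir669a-3 read 4.55, 4.93, 4.87 and 4.77 at 8 weeks and rose to 6.74, 6.80, 5.73 and 6.47 (1.66 ± 0.25, adjusted p = 0.00279). Neighbouring copies of the same cluster therefore moved in opposite directions, and for each of these hairpins the arrays of the groups were apart. Mir297a-4 read 3.85, 4.14, 4.49 and 4.65 at 8 weeks and rose to 5.75, 6.09, 6.12 and 5.84 (1.67 ± 0.23, adjusted p = 0.002), although its mean on chow (4.94) and at 4 weeks of LFD (5.11) lay above that at 8 weeks.

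Among all 22 measured hairpins of that cluster, 11 were higher and 11 lower at 12 weeks, 4 were called (3 higher, 1 lower; 0.0676% of all genes were called), and 12 had groups that did not overlap, 6 in each direction (7.04% of all genes). Among the hairpins below the threshold, Mir467e read 6.31, 6.27, 6.38 and 5.92 at 8 weeks and 4.42, 4.80, 5.76 and 4.47 at 12 weeks (-1.36 ± 0.38, adjusted p = 0.254). Mir466g read 2.34, 2.37, 2.63 and 2.30 against 2.79, 4.37, 2.65 and 3.49 (0.92 ± 0.26, adjusted p = 0.254), a level near the bottom of the scale. All 3 measured Mir467 copies had lower values at 12 weeks and all 6 Mir466 copies had higher values, while Mir669 copies went both ways. The copies are close in sequence and repeats of the family occur elsewhere, so a probe of one can bind RNA of another, and how far each value belongs to its own hairpin was not tested. Under HFD, in arrays not shared with this comparison, 21 of the 22 had the same sign between 12 and 8 weeks. The share of all genes with the same sign is not given here, and such copies cannot be counted as separate agreements.

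**Figure D2:**
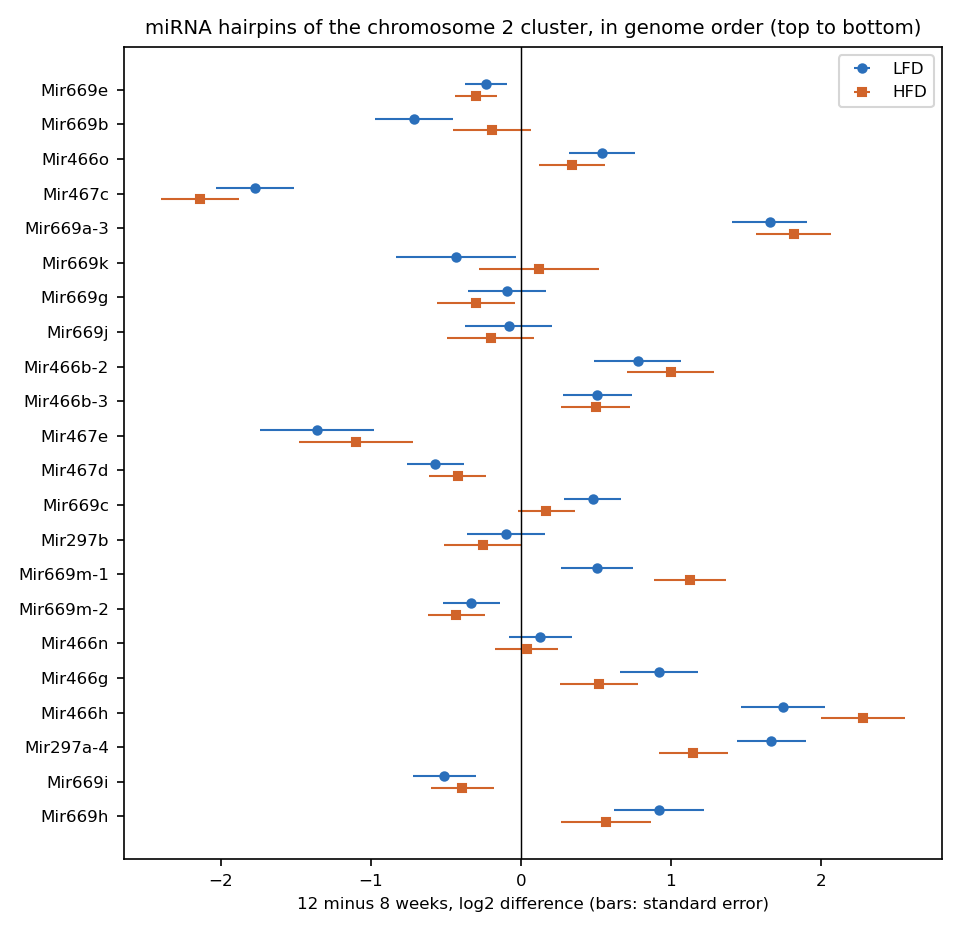
Difference between 12 and 8 weeks (log2, horizontal axis, bars of 1 standard error) for the 22 measured hairpins of the chromosome 2 cluster in genome order, under LFD (circles) and HFD (squares). Mir467c lies at -1.77 under LFD and Mir669a-3, the next measured hairpin along the chromosome, at 1.66, and the HFD values lie on the same side of 0 for 21 of 22 hairpins.

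Of the 4 called chemosensory receptors, 1 rose and 3 fell. Such receptors belong to the nose and the vomeronasal organ. The olfactory receptor gene Olfr310 read 3.87, 3.27, 4.00 and 3.79 at 8 weeks and rose to 5.62, 5.61, 6.35 and 5.01 at 12 weeks (1.91 ± 0.22, adjusted p = 0.000342), with means of 3.74 on chow and 4.52 at 4 weeks of LFD. Olfr875 fell from 5.58, 5.42, 5.51 and 5.58 to 3.83, 4.12, 3.86 and 4.44 (-1.46 ± 0.17, adjusted p = 0.000342). Olfr726 fell by a like amount, from 5.86, 5.48, 5.28 and 5.31 to 4.44, 3.88, 3.61 and 4.21 (-1.45 ± 0.19, adjusted p = 0.00152). The vomeronasal receptor gene Vmn1r44 read 4.43, 4.15, 4.22 and 4.22 at 8 weeks and 3.45, 3.84, 3.43 and 3.31 at 12 weeks (-0.75 ± 0.14, adjusted p = 0.0433). The first 3 receptors were called with any array left out, whereas Vmn1r44 was called only in the fit without 12-week array 2. The long non-coding RNAs 1600010M07Rik (-1.17 ± 0.21, adjusted p = 0.0228) and 4933424G05Rik (-0.56 ± 0.11, adjusted p = 0.0433) also fell, the first called only without 12-week array 1 and the second only without 8-week array 4 or 12-week array 1.

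The called features were unevenly spread over kinds of gene. Of 478 miRNA hairpins tested, 7 were called (1.46%), against 4 of 1394 olfactory or vomeronasal receptors (0.287%), 2 of 1926 long non-coding RNAs (0.104%) and 2 of 17594 other protein-coding genes (0.0114%). An unadjusted p under 0.05 was found for 15.3% of the hairpins, 10.4% of the receptors, 8.88% of the long non-coding RNAs and 8.55% of the other protein-coding genes. Groups that did not overlap made up 9.41% of the hairpins, 6.38% of the receptors, 4.72% of the long non-coding RNAs and 7.26% of the other protein-coding genes. The 22 hairpins of the chromosome 2 cluster, whose probes may bind each other's RNA, held 4 of the 7 calls. They also held 15 of the 73 hairpins with an unadjusted p under 0.05 and 12 of the 45 without overlap. The hairpin shares therefore rest in part on copies that cannot be counted as separate loci. Between 12 and 8 weeks of HFD, 5 hairpins (1.05%), 2 receptors (0.143%) and 1 other protein-coding gene, Cox7b (0.00568%), were called. An unadjusted p under 0.05 under HFD was found for 14.2% of the hairpins, 6.81% of the receptors, 7.68% of the long non-coding RNAs and 7.09% of the other protein-coding genes. With both diets averaged, 0.338% of all genes were called, with 3.35% of the hairpins, 0.574% of the receptors, 0.156% of the long non-coding RNAs and 0.267% of the other protein-coding genes. The remaining 788 genes, of another or no RefSeq class, had no call under either diet, with an unadjusted p under 0.05 for 10.5% under LFD and 9.77% under HFD.

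Eml2, which encodes a microtubule-associated protein, read 6.88, 6.99, 6.97 and 6.93 at 8 weeks and 6.30, 6.23, 6.34 and 6.34 at 12 weeks. Replicates lay close together, and the gap between the groups was wider than the range within either. Eml2 fell by 0.64 ± 0.09 on the log2 scale, to 0.642 of its 8-week level (95% interval of the log2 difference -0.83 to -0.45, adjusted p = 0.00251), and was called with any array left out. Its mean at 4 weeks of LFD was 6.78 and on chow 6.71, so the 12-week mean of 6.30 was below both. The difference was -0.64 among the arrays with high liver transcripts, where it was not called (adjusted p = 0.0736). It was -0.61 among those without, where only 1 array at 12 weeks remained.

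H2ac21, a replication-dependent histone H2A gene, read 5.84, 6.32, 5.93 and 5.94 at 8 weeks and 4.99, 5.30, 5.31 and 5.28 at 12 weeks. It fell by 0.79 ± 0.13 (adjusted p = 0.0113), to 0.579 of the 8-week level. The level at 4 weeks of LFD (5.22) and on chow (5.14) was that of the 12-week arrays, so the 8-week arrays were the high ones. The call was lost without 8-week array 2 (adjusted p = 0.0824), without 12-week array 1 (adjusted p = 0.0621) or with only the LFD groups compared in the fit (adjusted p = 0.125). The cell cycle list holds genes of mitosis as well as of DNA replication. Of its 21 measured genes, 9 were higher and 12 lower, with a median difference of -0.08 and none called. In that list 2 genes were lower with an unadjusted p under 0.05 (4.58% of all genes) and 2 were lower without overlap (4.28% of all genes).

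**Figure D3:**
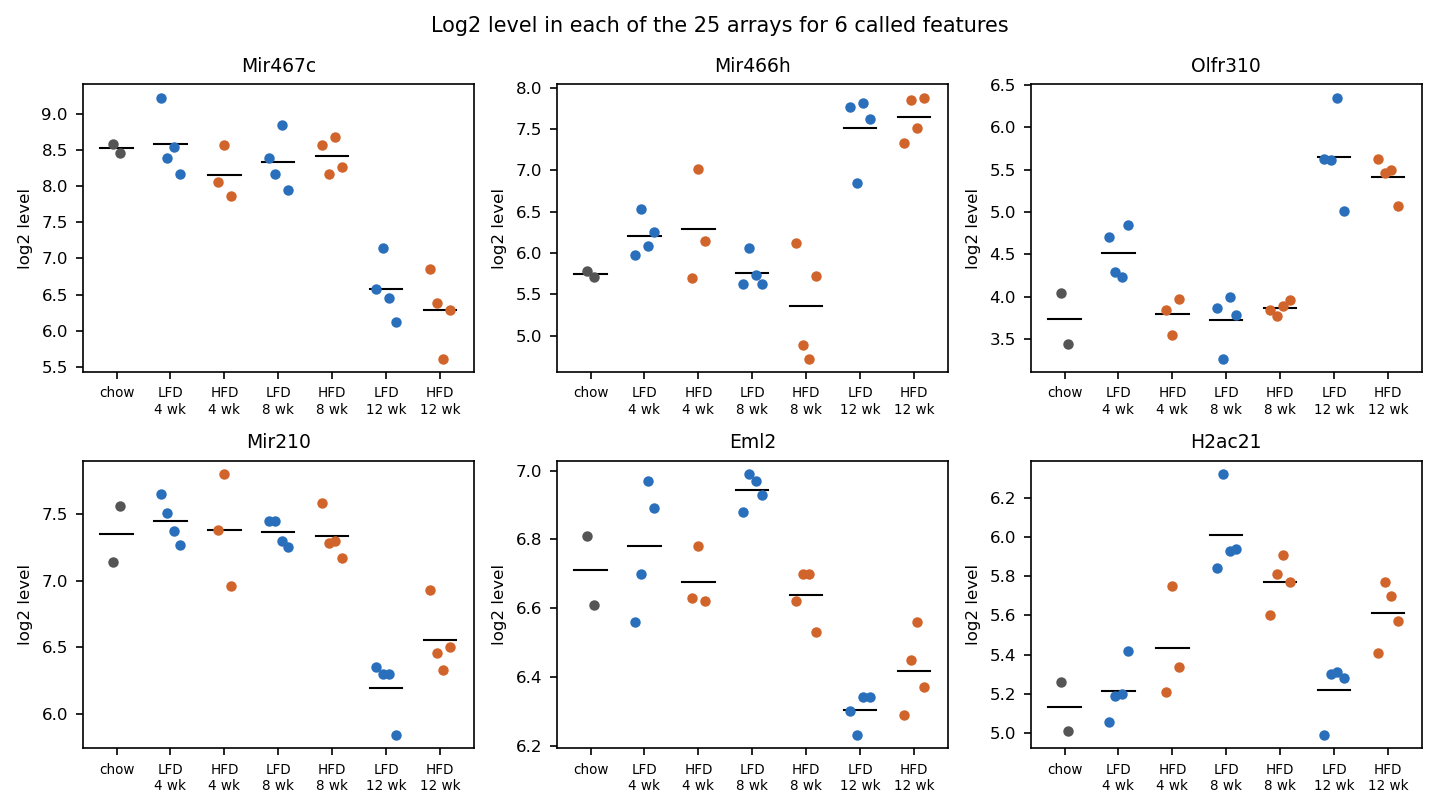
Log2 level of 6 called features in each of the 25 arrays by group (points, horizontal bars are group means, blue for LFD, orange for HFD, grey for chow). Mir467c, Mir466h, Olfr310 and Mir210 shift in the 12-week arrays of both diets, whereas H2ac21 is at 5.22 at 12 weeks of LFD and 5.61 at 12 weeks of HFD.

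The same interval under HFD was measured in arrays that this comparison does not share. There, 8 of 22180 genes were called between 12 and 8 weeks (0.0361%), 4 higher (0.018%) and 4 lower (0.018%), and 6 of them were among the 15 called under LFD: Mir467c, Mir669a-3, Mir466h, Mir3471-1, Olfr310 and Olfr875. All 15 LFD calls had the same sign under HFD, 14 of them with an unadjusted p under 0.05 (7.37% of all genes) and 12 with groups that did not overlap (4.71%). The share of all genes with the same sign under both diets is not given here. The residual spread behind the calls and p-values came from the arrays of all groups, so these are not independent between the diets. The signs and the overlap of arrays do not use that spread. With only the groups compared in the fit, 2 genes were called under HFD. Under LFD that fit called 14, 11 of them among the 15. Mir467c fell by 2.14 ± 0.26 under HFD and Mir466h rose by 2.28 ± 0.28. Olfr310 rose by 1.55 ± 0.22. The smallest HFD difference among the 15 was that of H2ac21 (-0.16 ± 0.13, unadjusted p = 0.236), and Eml2 differed by -0.22 ± 0.09 (unadjusted p = 0.0273). The test of the difference between diets itself called none of the 22180 genes with limma. An unadjusted p under 0.05 was found for 1127, fewer than between 12 and 8 weeks of LFD (1976) or of HFD (1635). For H2ac21 the difference between diets was -0.63 ± 0.19 (unadjusted p = 0.00273, adjusted p = 0.973) and for Eml2 -0.42 ± 0.13 (unadjusted p = 0.00422, adjusted p = 0.973). Both genes were chosen by their LFD difference, which is part of that contrast. Their unadjusted p-values are therefore biased low and do not show a change particular to LFD. With the liver split as a block the interaction called 155 genes (0.699%), 154 of them with a more positive difference under LFD, and with the hepatocyte mean as a covariate it again called none. The liver level moved in opposite directions over this interval, with a hepatocyte median of 2.21 under LFD and -1.28 under HFD, and its part in those 155 calls was not tested.

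**Figure D4:**
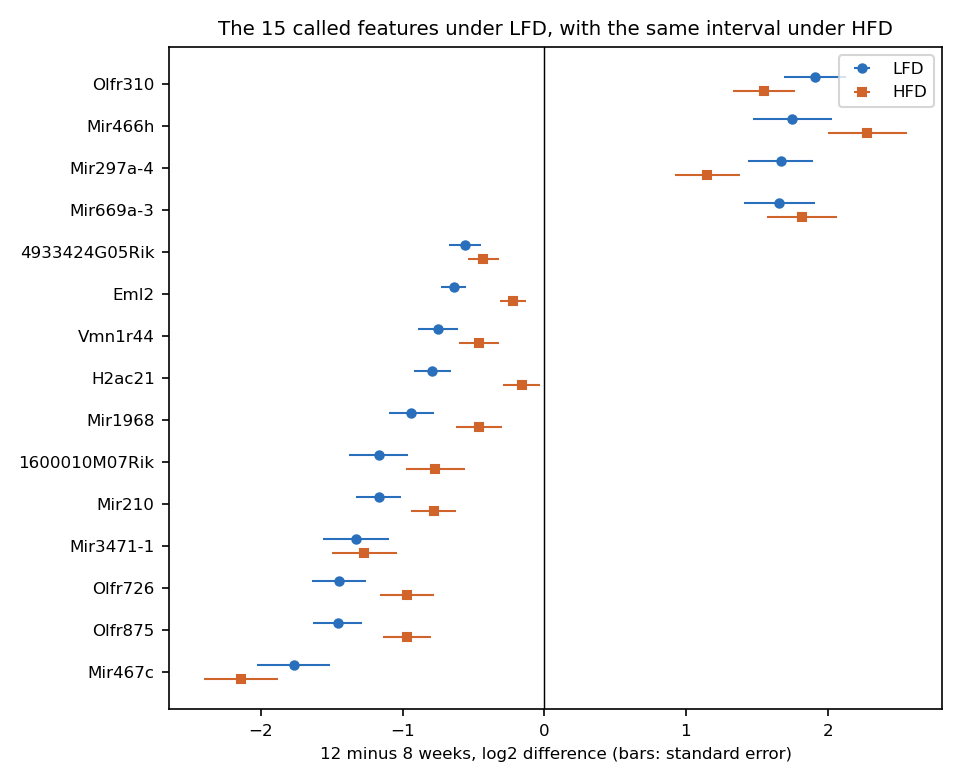
Difference between 12 and 8 weeks (log2, bars of 1 standard error) of the 15 features called under LFD (circles), with the HFD difference of the same feature (squares). All 15 pairs lie on the same side of 0, from Mir467c at -1.77 to Olfr310 at 1.91 under LFD.

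For part of the called features the 12-week arrays of both diets stood apart from all earlier arrays. For 17 genes (0.0766%), all 8 arrays taken at 12 weeks lay outside the range of the other 17 arrays, 13 below (0.0586%) and 4 above (0.018%). The corresponding number was 3 for the 8-week arrays (0.0135%) and 3 for the 4-week arrays (0.0135%). Of the 15 LFD calls, 9 were among the 17. Both sets rest on the same LFD arrays, and the LFD groups were apart in all 15 calls, so this overlap is not separate support. The others, named after their values were seen, included Twf1, which encodes the actin-monomer-binding protein twinfilin. Twf1 read 9.89, 10.15, 9.98 and 10.06 at 8 weeks of LFD and 10.28, 10.32, 10.30 and 10.37 at 12 weeks (0.30 ± 0.08, adjusted p = 0.214). Further hairpins were Mir98 (-1.02 ± 0.29), Mir500 (-0.69 ± 0.19) and Mir301b (-0.62 ± 0.16), none of them called. The product of the Mir98 locus belongs to the let-7 family, whose seed stands in capitals in its mature sequence.
mmu-miR-98-5p: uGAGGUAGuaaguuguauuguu
The labels give no date of extraction, labelling or hybridisation, so a shared handling of the 12-week arrays and the time on diet cannot be told apart.

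Among other protein-coding genes, no further gene was called as higher, and the nearest to the threshold follow as values. Uhrf1bp1l, which encodes a lipid transfer protein of endosomes, read 8.04, 7.98, 8.22 and 7.88 at 8 weeks and 8.85, 8.55, 8.54 and 8.30 at 12 weeks (0.53 ± 0.11, adjusted p = 0.0647, under 0.05 in 2 of the 8 fits that left out an array). Ranbp3l, a Ran-binding protein gene, read 5.63, 5.62, 5.83 and 5.63 against 6.44, 6.59, 6.52 and 6.38 (0.80 ± 0.17, adjusted p = 0.0999). The arrays of both genes were fully apart. The secreted metalloprotease gene Adamts17 (0.73 ± 0.15), the C-type lectin gene Cd209b (0.64 ± 0.14), Lrit1 (0.58 ± 0.13), Lrrc20 (0.51 ± 0.12), the sialyltransferase gene St8sia3 (0.54 ± 0.13), Phf11c (0.60 ± 0.14), Tesmin (0.46 ± 0.11) and Crhbp (0.47 ± 0.11) followed, with adjusted p from 0.108 to 0.159. Each of these genes also had groups that did not overlap, as had 612 genes in that direction (2.76% of all tested). Tex52 stood at 3.75, 3.58, 4.12 and 3.92 against 4.81, 4.34, 4.87 and 4.18 (0.71 ± 0.16, adjusted p = 0.145), and it rose by 0.78 with the liver split as a block (adjusted p = 0.0401).

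The lower values below the threshold were led by Mnat1, a subunit of the kinase that activates cyclin-dependent kinases. It read 7.83, 8.17, 7.90 and 7.87 at 8 weeks and 7.42, 7.44, 7.61 and 7.52 at 12 weeks (-0.45 ± 0.09, adjusted p = 0.0884). Polr1d, a shared subunit of RNA polymerases I and III, read 8.36, 8.43, 8.13 and 8.37 against 7.77, 7.95, 7.87 and 7.96 (-0.44 ± 0.09, adjusted p = 0.11). For both genes the earlier LFD mean, 7.67 for Mnat1 and 7.77 for Polr1d, was below that at 8 weeks. Ifitm2, an interferon-induced membrane protein gene, read 8.70, 9.05, 8.92 and 8.77 against 8.08, 8.21, 8.18 and 8.26 (-0.68 ± 0.15, adjusted p = 0.12), and it differed by -0.75 ± 0.15 under HFD. Pet100, an assembly factor of cytochrome c oxidase, read 7.13, 7.15, 7.15 and 7.24 against 6.4, 6.61, 6.62 and 6.58 (-0.62 ± 0.14, adjusted p = 0.12). Tnfaip8l3 (-0.69 ± 0.15), Zfp324 (-0.49 ± 0.11), H60b (-0.66 ± 0.15), Haus7 (-0.56 ± 0.13), P2rx6 (-0.57 ± 0.13) and the ribosomal protein paralog gene Rpl22l1 (-0.55 ± 0.13) had adjusted p from 0.11 to 0.138.

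With the liver split as a block, 5 genes beyond the 15 were called. The liver genes Cyp4a14, a fatty acid hydroxylase (1.51, adjusted p = 0.0109), and Slc2a2, the liver glucose transporter (1.05, adjusted p = 0.0401), were 2 of them. Cyp4a14 read 8.87, 8.39, 3.07 and 2.89 at 8 weeks and 9.93, 9.76, 5.43 and 9.0 at 12 weeks, high in the arrays whose hepatocyte mean was high. With that mean as a covariate the differences were 0.39 and 0.40 (adjusted p = 0.906 and adjusted p = 0.841). Further liver genes headed that fit without being called, among them the bile transporter gene Abcc2 (1.21), the sterol hydroxylase gene Cyp8b1 (0.76) and the complement gene C8g (1.05). Cyp2c23 (1.34), Necab1 (1.07) and Cyp1a2 (1.12) followed, and F2rl3, a thrombin receptor gene, stood at -0.90, with adjusted p from 0.0605 to 0.0799. The remaining block calls were Tex52, Olfr1219 (-1.96) and Gm2022 (-1.40), of which Olfr1219 and Gm2022 were called with the covariate as well.

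None of the 584 measured genes of the 41 gene lists was called, and 50 of them (8.56%) had an unadjusted p under 0.05, against 8.91% of all genes. Over all genes the median difference was 0.0025, with 50.3% higher and 49.4% lower. The lists below are described by counts and medians beside those figures. Of 25 measured single genes in a fixed panel, 7 were higher and 18 lower, from Nr1d1 at -0.59 to Alb at 1.90, and none was called.

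Cholesterol synthesis genes were lower at 12 weeks in all 18 measured members, with a median difference of -0.37. None was called, 5 had an unadjusted p under 0.05 (background 4.58% in that direction) and 6 had groups that did not overlap (background 4.28%). In the mevalonate steps, phosphomevalonate kinase (Pmvk) read 10.05, 10.14, 9.72 and 10.63 at 8 weeks and 9.41, 9.40, 9.31 and 9.36 at 12 weeks (-0.77 ± 0.21, adjusted p = 0.254). Mevalonate kinase (Mvk) read 7.17, 7.54, 7.50 and 7.95 against 6.87, 6.82, 7.04 and 6.88 (-0.64 ± 0.18, adjusted p = 0.268). Both kinases were thus lower in each 12-week array than in any 8-week array. Mvd, the decarboxylase that follows, read 7.39, 7.02, 7.17 and 7.82 against 6.82, 6.79, 6.58 and 6.93 (-0.57 ± 0.21, adjusted p = 0.396). Among the sterol-forming steps, the demethylase gene Cyp51 differed by -0.78 ± 0.29 (adjusted p = 0.431), with overlapping arrays. Lanosterol synthase (Lss) read 8.40, 8.35, 8.01 and 10.00 against 7.74, 7.60, 7.61 and 7.79 (-1.0 ± 0.40, adjusted p = 0.465), and squalene epoxidase (Sqle) 7.33, 7.38, 7.33 and 8.54 against 7.02, 6.97, 7.10 and 7.13 (-0.59 ± 0.32, adjusted p = 0.625). In both enzymes 8-week array 4 was the highest array by more than the range of the others, and without it the differences were -0.57 (Lss) and -0.29 (Sqle). Srebf2, which encodes the transcription factor that drives the pathway, read 8.33, 8.46, 8.50 and 8.39 against 8.00, 7.70, 8.11 and 8.10 (-0.44 ± 0.23, adjusted p = 0.59). Hmgcs1, at the entry to the pathway, differed least of those named (-0.13 ± 0.13).

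The mean level of the 18 genes was 8.99, 8.95, 8.82 and 9.53 in the 8-week arrays and 8.82, 8.62, 8.47 and 8.70 in the 12-week arrays. At 4 weeks of LFD it was 7.89, 8.47, 8.45 and 8.83, so the 8-week arrays overlapped both other groups and array 4 was the highest of these 12. Without 8-week array 4 the median was -0.24, 15 of 18 members were lower and 2 had an unadjusted p under 0.05. The median over all members was -0.31 with the hepatocyte mean as a covariate. In the arrays with high liver transcripts it was -0.27, with 3 members higher and 15 lower. In the arrays without them it was -0.67, where 1 array was left at 12 weeks and 8-week array 4 was included. Under HFD the median over the same interval was -0.05.

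**Figure D5:**
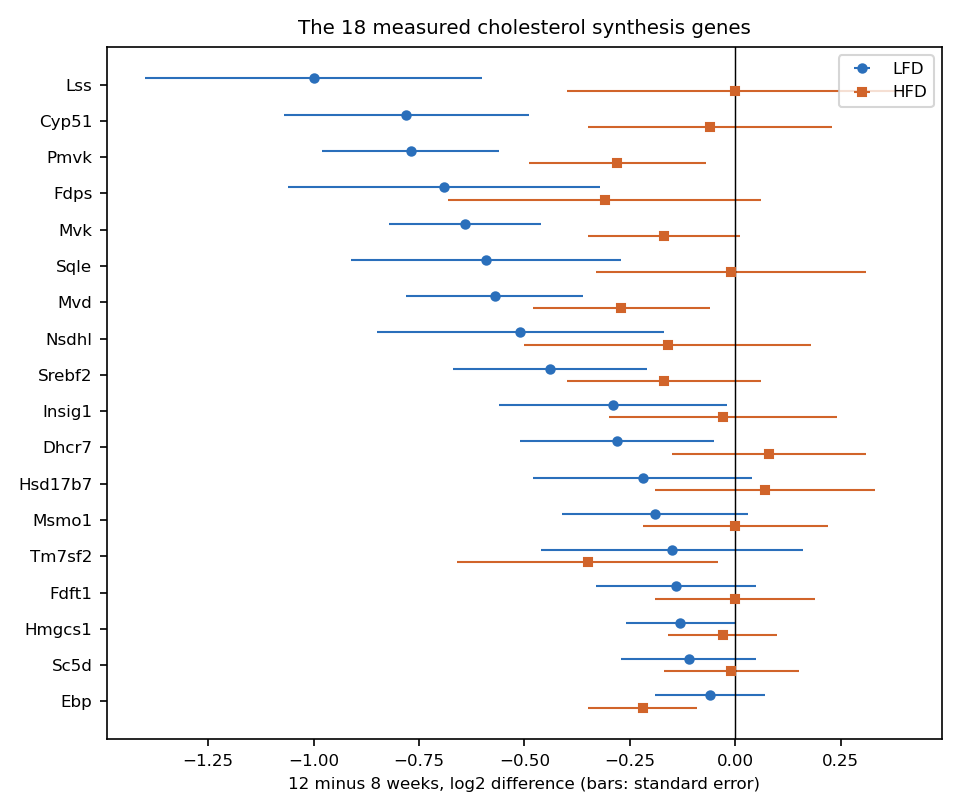
Difference between 12 and 8 weeks (log2, bars of 1 standard error) of the 18 measured cholesterol synthesis genes under LFD (circles) and HFD (squares), ordered by the LFD value. All 18 LFD values lie below 0, from Lss at -1.0 to Ebp at -0.06, and none was called.

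Respiratory chain genes were lower in 17 of 18 measured members, with a median of -0.20, no call, 5 lower with an unadjusted p under 0.05 (4.58% of all genes) and 8 lower with groups that did not overlap (4.28% of all genes). Ndufb8, of complex I, read 7.52, 7.71, 7.58 and 7.53 at 8 weeks and 6.95, 6.94, 7.42 and 7.24 at 12 weeks (-0.45 ± 0.13, adjusted p = 0.283). Cyc1, the cytochrome of complex III, read 9.01, 9.04, 8.94 and 9.21 against 8.57, 8.52, 8.49 and 8.56 (-0.52 ± 0.16, adjusted p = 0.319). Cox4i1, of complex IV, read 10.49, 10.69, 10.36 and 10.48 against 10.19, 10.02, 10.03 and 10.17 (-0.40 ± 0.12, adjusted p = 0.318), and Atp5c1, of the ATP synthase, differed by -0.32 ± 0.11. The list mean was 9.68, 9.75, 9.59 and 9.71 at 8 weeks and 9.51, 9.44, 9.49 and 9.44 at 12 weeks, without overlap. At 4 weeks of LFD it had been 9.24, 9.31, 9.48 and 9.52, so the 12-week means lay within the 4-week range and the 8-week means above it. The HFD median was -0.13, with 17 of 18 lower, where 46% of all genes were lower. Cox7b, another complex IV subunit gene, which was outside the list, fell under HFD (-1.18 ± 0.19, adjusted p = 0.0102) and read 9.35, 8.79, 9.19 and 8.86 against 8.49, 8.45, 8.52 and 7.90 under LFD (-0.71 ± 0.19, adjusted p = 0.217). It was named after its values were seen.

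Of 9 measured thermogenic genes, 3 were higher and 6 lower, with a median of -0.17 and none called. Cox8b, a complex IV isoform gene of muscle and brown fat, read 7.85, 7.66, 7.45 and 7.64 at 8 weeks and 6.65, 7.09, 6.67 and 6.69 at 12 weeks (-0.87 ± 0.21, adjusted p = 0.168). The groups did not overlap, and its HFD difference was 0.02 ± 0.21. Its LFD mean at 4 weeks was 7.12. Cox7a1, the muscle-type partner, differed by -0.32 ± 0.13 (adjusted p = 0.483).

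Lipid handling genes of the fat cell differed little. Of 17 lipogenesis genes, 14 were lower with a median of -0.16, and 2 did not overlap, both lower. Of 19 mature adipocyte markers, 16 were lower with a median of -0.08, and 5 did not overlap, all lower (4.28% of all genes). None of either list was called or had an unadjusted p under 0.05. Fatty acid synthase (Fasn) read 13.68, 13.74, 13.59 and 13.80 at 8 weeks and 13.49, 13.43, 13.56 and 13.60 at 12 weeks (-0.18 ± 0.22), near the top of the scale. The desaturase gene Scd1 differed by -0.16 ± 0.09 and the mitochondrial citrate carrier gene Slc25a1 by -0.31 ± 0.17, and the arrays of both did not overlap. The carboxylase gene Acaca, the rate-limiting enzyme of fatty acid synthesis, differed by -0.12 ± 0.27. With the hepatocyte mean as a covariate the differences shrank to -0.09 (Fasn), -0.18 (Slc25a1) and -0.04 (Acaca). The insulin-responsive glucose transporter gene Slc2a4 read 9.98, 10.02, 9.80 and 9.99 against 9.44, 9.30, 9.79 and 9.62 (-0.41 ± 0.23, adjusted p = 0.628), and Agpat2, of triglyceride assembly, differed by -0.28 ± 0.16.

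Markers of adipocyte expansion had a median of 0.52 over 11 measured genes, 6 higher and 5 lower, with 3 higher at an unadjusted p under 0.05 (background 4.33%), 2 without overlap and none called. Fgf13 read 6.58, 6.77, 6.11 and 6.87 at 8 weeks and 6.96, 7.38, 6.93 and 7.52 at 12 weeks (0.61 ± 0.28, adjusted p = 0.528), after a mean of 5.65 at 4 weeks. Bmp3 read 7.96, 7.88, 7.61 and 8.03 against 8.33, 8.43, 8.31 and 8.51 (0.53 ± 0.26, adjusted p = 0.572), after 6.99 at 4 weeks. For both, the 3 LFD means stood in the order of time. The imprinted gene Mest, which is induced in enlarging fat cells, read 10.37, 10.03, 10.21 and 10.81 against 11.27, 10.98, 10.32 and 10.93 (0.52 ± 0.25), and it differed by -0.19 in the arrays without high liver transcripts. The imprinted genes Peg3 (0.98 ± 0.47) and Nnat (0.80 ± 0.40) were lowest in 8-week array 4, with Peg3 at 6.23 and Nnat at 8.86 there, and without it the differences were 0.51 and 0.34. The Wnt antagonist gene Sfrp5 varied from 5.63 to 8.42 within the 12-week group (0.86 ± 0.55). Without 8-week array 4 the list median was 0.34, and under HFD it was 0.08.

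Extracellular matrix genes were lower in 19 of 26 measured members with a median of -0.08, and 8 did not overlap, all of them lower (4.28% of all genes). Col3a1 read 10.76, 10.81, 10.90 and 10.90 at 8 weeks and 10.44, 10.49, 10.39 and 10.10 at 12 weeks (-0.49 ± 0.16, adjusted p = 0.355). Col1a1 read 9.74, 9.75, 10.06 and 9.86 against 9.27, 9.5, 9.45 and 9.13 (-0.51 ± 0.18, adjusted p = 0.376). Col3a1 and Col1a1 were therefore lower in every 12-week array than in any 8-week array, but not past the adjusted threshold. The other fibrillar collagen genes of the list are not given here. The collagen VI chains Col6a2 (-0.44 ± 0.17) and Col6a1 (-0.40 ± 0.18) did not overlap either. The same genes differed by -0.03 (Col3a1), 0.16 (Col1a1), 0.00 (Col6a2) and -0.02 (Col6a1) under HFD, and the test between diets gave unadjusted p = 0.0561, 0.0136, 0.0876 and 0.142 in that order. These genes were named by the smallest p of the list under LFD. That LFD difference is part of the test between diets, so its p-values are biased low for them. With the hepatocyte mean as a covariate the list median was 0.01, with 13 of 26 lower (47.6% of all genes), Col3a1 at -0.43 and Col1a1 at -0.35.

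The immune lists held no called gene. Of 20 macrophage markers, 4 were higher and 16 lower, with a median of -0.14, which was -0.08 with the liver split as a block and -0.03 with the covariate (8 higher, 12 lower). The chemokine receptor genes of monocytes and macrophages, Cx3cr1 (-0.35 ± 0.13) and Ccr2 (-0.40 ± 0.19), had unadjusted p under 0.05, while the pan-macrophage gene Adgre1 differed by -0.02 ± 0.22, with a sign that changed when liver transcripts entered the fit. Of 15 markers of lipid-associated macrophages, 10 were higher with a median of 0.15, which was 0.24 with the covariate. The elastase gene Mmp12 read 6.87, 6.93, 6.17 and 7.49 at 8 weeks and 6.66, 8.24, 8.23 and 8.98 at 12 weeks (1.16 ± 0.50, adjusted p = 0.501). Gpnmb read 6.94, 7.25, 6.53 and 6.76 against 7.15, 8.22, 7.86 and 8.51 (1.06 ± 0.55, adjusted p = 0.589). In both genes 12-week array 1 stayed within the 8-week range and the other 12-week arrays lay above it. Dcstamp (0.45 ± 0.23) and Itgax (0.50 ± 0.33) had smaller differences, and the lipid receptor gene Trem2 differed by 0.17 ± 0.37. With the hepatocyte mean as a covariate these 3 were at 0.76 (Dcstamp), 0.82 (Itgax) and 0.43 (Trem2), none called.

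Of 16 interferon-stimulated genes, 11 were lower, with a median of -0.08 and none called. Irf7, a transcription factor of the response, read 7.92, 8.08, 8.17 and 8.21 at 8 weeks and 7.70, 7.95, 7.34 and 7.16 at 12 weeks (-0.56 ± 0.16, adjusted p = 0.254). Usp18, which restrains it, read 7.44, 7.63, 7.35 and 7.80 against 7.30, 7.21, 6.93 and 6.91 (-0.47 ± 0.14, adjusted p = 0.283), and Isg15 differed by -0.39 ± 0.16. Their HFD differences were -0.39, -0.57 and -0.52. With the hepatocyte mean as a covariate the list median was 0.04. Of 23 cytokine and acute phase genes, 17 were higher and 6 lower with a median of 0.12, and 1 in each direction did not overlap, Ccl8 (-0.70 ± 0.28) and Il1rn (0.49 ± 0.21). Of 9 MHC class II genes, 3 were higher and 6 lower with a median of -0.14, and 2 did not overlap, both lower, among them the antigen-loading gene H2-DMa (-0.50 ± 0.17). Of 17 T and NK cell genes, 13 were higher and 4 lower with a median of 0.11, and 2 did not overlap, both higher, Cd8b1 (0.43 ± 0.16) and the interleukin receptor gene Il7r (0.68 ± 0.40). None of these genes was called, and over all genes 2.76% did not overlap upward and 4.28% downward. Of 17 circadian clock genes, 7 were higher and 10 lower with a median of -0.06. Nr1d1, the repressor of the clock, read 10.11, 10.41, 10.44 and 11.05 against 9.79, 9.61, 10.31 and 9.95 (-0.59 ± 0.25, adjusted p = 0.503) and was the only clock gene with an unadjusted p under 0.05.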

How the data were processed

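Log2 levels were measured in 25 mice on Affymetrix Mouse Gene 2.0 ST arrays. The authors deposited log2 values made with Transcriptome Analysis Console 4.0.2, per the design text in the labels; how background and array differences were corrected is not given in the sources used here. Of 34472 transcript clusters, 23521 had 1 gene symbol in the platform table, 1814 several and 9137 none. The cluster with the highest mean stood for each of 22180 genes. limma 3.58.1 (R 4.3.3) fitted a mean for each of 7 groups to all 25 arrays (18 residual degrees of freedom), followed by the moderated test and Benjamini-Hochberg adjustment over all genes, with an adjusted p under 0.05 called. Values are differences ± moderated standard error, and no intensity filter was used. The labels call the arrays biological replicates. Arrays were split by the largest gap in the mean of the hepatocyte genes, between 7.77 and 9.43.

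The lists and members were chosen with earlier results of these data known. Genes named were the 12 called with the largest rise and fall in the fits with and without the liver block, filled to 12 by the smallest p, up to 4 members of each list described, and a panel; predicted genes, chemosensory receptors and small RNAs were otherwise counted. Members of lists not described, and part of the panel, are given as counts. A further gene that the rule names is not reported here. Mature miRNA sequences came from RefSeq (GRCm38.p6). The fit was tested on simulated data.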

Additional observations from a re-analysis of the deposited data

Results flagged for a closer look

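In 13 of the 214 groups of 4 arrays examined for the genes named, the highest or lowest array stood apart from the nearest other by more than Dixon's 95% critical value; chance flags about 1 group in 20. At 12 weeks, array 3 was lowest for Alb (11.84), Ttr (9.45) and Cyp8b1 (5.47), the liver genes, and for Hmgcs1 (10.14). Array 1 of that group was lowest for H2ac21 (4.99) and Col6a1 (9.80) and highest for Adamts17 (5.78), array 2 was highest for Cox8b (7.09), and array 4 was lowest for Mir210 (5.84) and Cox7b (7.90). At 8 weeks, array 4 was highest for Sqle (8.54) and lowest for Peg3 (6.23), and array 3 was highest for Ranbp3l (5.83).

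The clusters with no gene symbol were not used in the comparison. When all 34472 clusters were tested together, 67 of the 9137 clusters without a symbol were called between 12 and 8 weeks of LFD (0.733%), 13 higher and 54 lower, against 25 of the 23521 clusters with 1 symbol (0.106%). All 67 had the same sign under HFD, where 40 of them were called as well, among 70 of the 9137 called there. Of the 25 called clusters with 1 symbol, 24 had the same sign under HFD and 11 were called there. The share of all clusters with the same sign under both diets is not given here. The differences of the 67 ranged from -3.45 to 3.12, and their median level was 4.97, against 4.10 over all clusters without a symbol.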

How the results depend on the processing

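The 15 LFD calls never changed sign (40 of 233 values lost the call, leave-outs aside), and the count stayed within 1.5 times of 15 under 10 of 17 alternatives that kept all arrays or left out a set of them. It was 8 among genes above the median level, 93 over all clusters, 56 with array weights, 235 by the criteria of the design text (an unmoderated model, unadjusted p under 0.05 and a fold of at least 1.5), 29 in the arrays with high liver transcripts, 0 in those without (541 at an unadjusted p under 0.05 with limma) and 27 without chow array 1, LFD 4-week array 1 and HFD 4-week array 1. Leaving out each array gave 9 to 15. The HFD count of 8 became 2 in its own groups, 96 over all clusters, 37 with array weights, 180 by the design criteria, 98 with the liver split as a block, 5 with the covariate, 323 and 0 (858 at an unadjusted p under 0.05) in the arrays with and without high liver transcripts, and 26 without those 3 arrays; leave-outs gave 4 to 14 (4 without 8-week array 3 or 12-week array 4, 14 without 8-week array 1). The interaction count of 0 became 356 by the design criteria, 155 with the liver block and 260 in the arrays with high liver transcripts. The causes were not tested.

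The replicate number as a block gave 14 LFD calls (12 shared with the 15; Mir1968, 4933424G05Rik and Vmn1r44 were lost), 7 HFD calls (6 shared with the 8) and 0 interaction calls. Same-numbered LFD arrays correlated at 0.44, 0.34, 0.62 and -0.06 in their deviations and 2 of 4 arrays matched their own number best, so the numbers were not taken as pairs.

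Signs turned for Alb (-0.38 and -0.34 with the covariates, -0.04 in the arrays with high liver transcripts), Mest (-0.19) and Acaca (0.01) in the arrays without them, and Adgre1 (0.01 with array weights, 0.07, 0.14 and 0.12 with the liver terms, 0.17 in the arrays without high liver transcripts, and -0.10 to 0.14 leaving out 1 array, above 0 only without 12-week array 1). No background signal came with the values, so which low probes were undetected is unknown.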

Other observations

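Averaged over both diets, a comparison added after the calls of each diet had been seen, 75 genes were called between 12 and 8 weeks, 18 higher and 57 lower, and all 15 LFD calls were among them. They comprised 16 miRNA hairpins, 8 olfactory or vomeronasal receptors and 47 other protein-coding genes. Leaving out 1 array at a time gave 39 to 81 calls.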
